A study of Mus musculus with 12 samples.

Results

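Type I interferon-stimulated genes were followed in macrophages (Mφ) sorted from mouse hearts. The set held 10 genes, Irf7, Usp18, Isg15, Ifit1, Ifit2, Ifit3, Oasl2, Rsad2, Mx1 and Ifi44, which were taken by name from the 24445 gene symbols counted in the files, and all 10 were found there and passed the filter on low counts. RNA was measured in CD14+/CD64+ cells that had been sorted by FACS from the hearts of 12 adult male C57BL6/J mice, with 1 library per mouse and 4 mice in each of 3 groups. Control mice (Ct) carried a saline pump. Mice with early concentric hypertrophy (ECH) were given isoproterenol, which stimulates β-adrenergic receptors, for 14 days by pump (30 mg/kg/day), and mice with heart failure (HF) were given the same dose for 28 days. The study's methods give the age of the mice as a range of weeks in adulthood, and its results give a narrower range for the isoproterenol model. Neither is given for each sequenced mouse or group. The infusion time of single Ct mice was not found in the sources used here. The question put to these genes was whether their RNA differed between Ct, ECH and HF Mφ.

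Type I interferons are secreted proteins that a cell releases after sensing foreign or misplaced nucleic acid. They bind a receptor made of IFNAR1 and IFNAR2, the kinases JAK1 and TYK2 then phosphorylate STAT proteins, which join IRF9 in a complex that enters the nucleus and binds a short DNA motif, the interferon-stimulated response element, before the target genes. Cardiac Mφ are known to turn on such genes after myocardial infarction, when they take up DNA of dying cells, and Mφ that hold these transcripts at a high level have been described as a subset of their own in injured hearts.

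The 10 genes lie on 8 chromosomes of GRCm38 in the GENCODE M21 annotation, and each is a protein-coding gene whose exons were counted. Ifit2 (chr19:34550694-34576419), Ifit3 (chr19:34583531-34588731) and Ifit1 (chr19:34640871-34650009) lie in 1 cluster on the plus strand. The other members are Irf7 (chr7:141262706-141266481), Usp18 (chr6:121245906-121270917), Isg15 (chr4:156199424-156200818), Oasl2 (chr5:114896936-114912234), Rsad2 (chr12:26442746-26456452), Mx1 (chr16:97447035-97462907) and Ifi44 (chr3:151730922-151749960). Irf7 overlaps Phrf1, and Usp18 overlaps the noncoding gene Gm44148, each on the opposite strand. The sources used here do not say whether the counting used the strand, so reads over these overlaps cannot be told apart.

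The DNA just before the start site is shown for the 4 members whose promoter window held the motif GAAA, any 2 bases, GAAA, the core of the interferon-stimulated response element, because it is the element through which such genes are known to respond. The windows, from RefSeq on GRCm38.p6, run from 250 bases before to 50 bases after a start site. They were found for 8 of the 10 members, 9 windows in all, and not for Mx1 and Usp18. The motif, read on both strands, was present in 4 of these 9 windows (44.4%), as compared to 1131 of all 32851 windows (3.44%). Each line gives the 250 bases before the start site, 5′ to 3′ on the strand of the gene, with the motif in capitals.
Isg15: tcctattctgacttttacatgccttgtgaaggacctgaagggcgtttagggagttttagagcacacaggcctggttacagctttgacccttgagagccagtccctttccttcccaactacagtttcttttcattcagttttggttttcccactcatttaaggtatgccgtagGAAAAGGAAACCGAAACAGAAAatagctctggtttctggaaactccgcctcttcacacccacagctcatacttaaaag
Ifit1: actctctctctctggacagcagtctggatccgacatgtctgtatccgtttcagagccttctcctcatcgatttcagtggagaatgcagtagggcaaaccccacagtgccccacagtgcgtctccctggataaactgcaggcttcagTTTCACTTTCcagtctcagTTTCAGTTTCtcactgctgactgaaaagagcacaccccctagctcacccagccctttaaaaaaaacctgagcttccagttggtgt
Ifit3: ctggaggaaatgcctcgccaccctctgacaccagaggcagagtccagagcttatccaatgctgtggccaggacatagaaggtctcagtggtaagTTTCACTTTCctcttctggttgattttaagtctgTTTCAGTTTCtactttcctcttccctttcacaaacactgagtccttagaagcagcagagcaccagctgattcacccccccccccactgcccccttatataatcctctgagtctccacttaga
Rsad2: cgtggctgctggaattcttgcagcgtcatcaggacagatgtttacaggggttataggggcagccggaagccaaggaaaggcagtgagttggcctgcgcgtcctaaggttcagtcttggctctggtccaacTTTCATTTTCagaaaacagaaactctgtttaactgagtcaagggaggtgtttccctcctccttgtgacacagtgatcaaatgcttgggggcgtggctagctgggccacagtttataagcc
The stretches are chr4:156200819-156201068 (minus strand) for Isg15, chr19:34640639-34640888 (plus) for Ifit1, chr19:34583279-34583528 (plus) for Ifit3 and chr12:26456453-26456702 (minus) for Rsad2. In Isg15 3 overlapping matches ran together, the first of them at base -78 from the start site. Ifit1 held the motif on the opposite strand at -104 and -85, Ifit3 held the same 2 sequences in the same order at -156 and -122, and Rsad2 held 1 match at -120. The windows of Ifit2, Irf7, Oasl2 and Ifi44 did not contain these letters, which says nothing of the factors that bind there.

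Libraries held between 88466559 and 111180291 counts, and values are given in CPM, the count relative to the TMM-scaled library size as edgeR computes it. At this depth 9 of the 10 members had at least 440 counts in every library. HF 1 (13600 genes detected) and Ct 2 (14489) stood apart. In HF 1 there were 188 genes without a count although each other HF library held at least 100, and in Ct 2 there were 127, as compared to at most 7 in the other libraries. Fold changes of several members, and the medians, are therefore given without both as well. The library numbers in the labels allow a pair of sets to be inferred, with ECH 1 and 2 beside Ct and ECH 3 and 4 beside HF, and the labels and the paper are silent on whether the sets were prepared apart. All 10 markers of the sort and of Mφ in general were detected in every library, and their summed level ranged from 22360 to 32840 CPM. Transcripts of other cells were measured by marker lists. B cell markers were higher in every Ct library than in any iso library, and 2 of 7 were called lower in ECH and in HF. They summed to 122 to 520.8 in Ct, 40.89 to 91.74 in ECH and 56.77 to 90.72 CPM in HF, T and NK cell markers (9 genes) to 26.95 to 123.4, 7.395 to 44.99 and 19.68 to 43.3 CPM, and neutrophil markers (10 genes) to 432.9 to 1815, 202.1 to 686.2 and 162.2 to 1384 CPM. The groups overlapped for both of these lists, with 0 of 9 and 0 of 10 genes called by edgeR in each comparison. At an unadjusted p under 0.05 there were 5, 2 and 0 T and NK cell genes and 3, 3 and 3 neutrophil genes in ECH vs Ct, HF vs Ct and ECH vs HF. Of the neutrophil list only Camp was at 0 in a whole group, in HF. Plasmacytoid dendritic cell markers (10 genes) summed to 234.1 to 324.7 in Ct, 212.2 to 249.1 in ECH and 214.1 to 263.6 CPM in HF, with Klk1 at 0 in Ct and in HF. Of this list 9 genes were tested and 0 were called by edgeR (4, 3 and 3 at an unadjusted p under 0.05), with median log2 fold changes of -1.32 in ECH and -0.57 in HF from Ct. Ly6C-high monocyte markers (12 genes) summed to 2567 to 6157, 5006 to 5773 and 4978 to 6585 CPM, and 1 of them, the fibronectin gene Fn1, was called higher in HF than in Ct (log2 fold change 1.84, edgeR FDR 0.0467). Resident cardiac macrophage markers (9 genes) summed to 6370 to 8359, 6667 to 8286 and 6468 to 7536 CPM, and 1 of them, Timd4, was called lower in ECH than in Ct (-1.62, edgeR FDR 0.0341). Of the endothelial (8 genes), cardiomyocyte (8) and fibroblast (7) lists 0 genes were called by edgeR in each comparison, and at most 3 of a list had an unadjusted p under 0.05. The part of these lists in the levels of the members was not tested. In bulk RNA, fewer cells that hold a transcript and less of it in each cell cannot be told apart.

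Oasl2, Ifit1 and Irf7 had the largest fold changes between HF and Ct, and no member passed the test in any comparison. A gene was called when edgeR's quasi-likelihood test gave an FDR (Benjamini-Hochberg adjustment over the 14608 genes tested) under 0.05 with a fold change of at least 2. Between ECH and Ct 0 of 10 members were called, as compared to 0.356% of all genes. Between HF and Ct 0 of 10 were called, as compared to 0.377%, and between ECH and HF 0 of 10, as compared to 0% of all genes. At an unadjusted p under 0.05 the counts were 0, 2 (Irf7 and Oasl2, both higher in HF) and 0 members, while 11.9%, 16.1% and 7.98% of all genes reached that level in the same comparisons. DESeq2, the likelihood ratio test of edgeR and limma-voom also called 0 of 10 members in each comparison.

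Irf7 encodes the transcription factor that amplifies type I interferon production. Its level was 61.73, 49.58, 66.44 and 58.83 CPM in Ct mice 1 to 4, 65.45, 104.8, 85.24 and 66.76 in ECH, and 76.67, 55.17, 139.4 and 103.6 CPM in HF. Ct libraries lay close together, and both iso groups reached from within the Ct range to well above it. The means were 59.15 ± 7.10, 80.56 ± 18.5 and 93.71 ± 36.3 CPM (SD, n = 4). The log2 fold change from Ct was 0.66 (SE 0.25) in HF, with an edgeR FDR of 0.228, and 0.45 (SE 0.25) in ECH, with an edgeR FDR of 0.509.

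Usp18 encodes a protease that removes ISG15 from proteins and dampens signalling at IFNAR2. Ct libraries held 33.97, 35.64, 22.18 and 21.62 CPM, ECH libraries 23.08, 41.33, 37.71 and 24.70 CPM, and HF libraries 26.66, 26.33, 42.02 and 38.66 CPM. Each group held a low and a high pair, and the groups overlapped over most of their range. The log2 fold changes were 0.16 for ECH and 0.24 for HF against Ct, and the 95% intervals of all 3 comparisons stayed within 2-fold. Without Ct 2 and HF 1 these log2 fold changes were 0.28 and 0.45.

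Isg15, a ubiquitin-like protein that is joined to other proteins or secreted, was the member whose mean was lower in both iso groups than in Ct by the largest amount. It stood at 17.88, 36.95, 13.98 and 9.45 in Ct, 11.68, 15.31, 6.74 and 6.414 in ECH and 10.66, 6.711, 19.54 and 15.32 CPM in HF. Ct 2 was the highest of all 12 libraries, while Ct 4 was within the range of both iso groups. The log2 fold change of ECH from Ct was -0.96 (SE 0.45, edgeR FDR 0.419) and that of HF was -0.58 (SE 0.44, FDR 0.563). Without Ct 2 and HF 1 these were -0.47 and 0.00, and with the library set added to the model the difference of HF turned to 0.45 (edgeR FDR 0.840, range over the alternatives 0.407 to 1). Ct 2 also held the highest B cell (520.8 CPM), T and NK cell (123.4 CPM), neutrophil (1815 CPM), plasmacytoid dendritic cell (324.7 CPM) and cardiomyocyte (256.4 CPM) marker sums and the lowest Ly6C-high monocyte sum (2567 CPM), and their part in the Isg15 level was not tested.

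The IFIT proteins bind foreign RNA through tetratricopeptide repeats, IFIT1 by recognising 5′ ends that lack the usual methylation. Ifit1 was at 16.53, 5.118, 20.15 and 17.18 in Ct, 18.79, 28.50, 23.32 and 10.24 in ECH and 19.94, 12.23, 36.19 and 28.07 CPM in HF. Ct 2 was the lowest library and HF 3 the highest. The log2 fold changes from Ct were 0.46 (SE 0.43) in ECH and 0.71 (SE 0.43) in HF, with an edgeR FDR of 0.729 and 0.449. Without Ct 2 and HF 1 they were 0.16 and 0.50.

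Ifit2 was at 40.71, 33.57, 34.66 and 35.35 in Ct, 33.70, 49.28, 45.61 and 35.58 in ECH and 22.79, 16.08, 63.26 and 61.42 CPM in HF. The HF mice were therefore the lowest 2 and the highest 2 of all 12, although the means of ECH (41.04 ± 7.59 CPM) and HF (40.89 ± 24.9 CPM) lay together and near that of Ct (36.07 ± 3.18 CPM; SD, n = 4). Ifit3 was at 36.28, 23.31, 31.62 and 36.85 in Ct, 40.67, 50.32, 37.68 and 37.41 in ECH and 30.73, 24.63, 66.44 and 55.21 CPM in HF. All 4 ECH libraries lay above all 4 Ct libraries, by a margin of 37.41 to 36.85 CPM, which was the case for 4.33% of all genes, while HF overlapped both groups. The log2 fold change of Ifit3 in ECH was 0.38 (SE 0.28, edgeR FDR 0.648). Without Ct 2 and HF 1 it was 0.24, and that of Ifit2 in HF vs Ct went from 0.18 to 0.34. Of the 75-base stretches of the Ifit3 transcript, 41.1% occur also in Ifit3b, so its count is uncertain. For Ifit1 this share was 5.19% (Ifit1bl2), for Usp18 3.06% (Gm44148) and for Mx1 2.2% (Mx2), and no other member shared any.

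**Figure D1:**
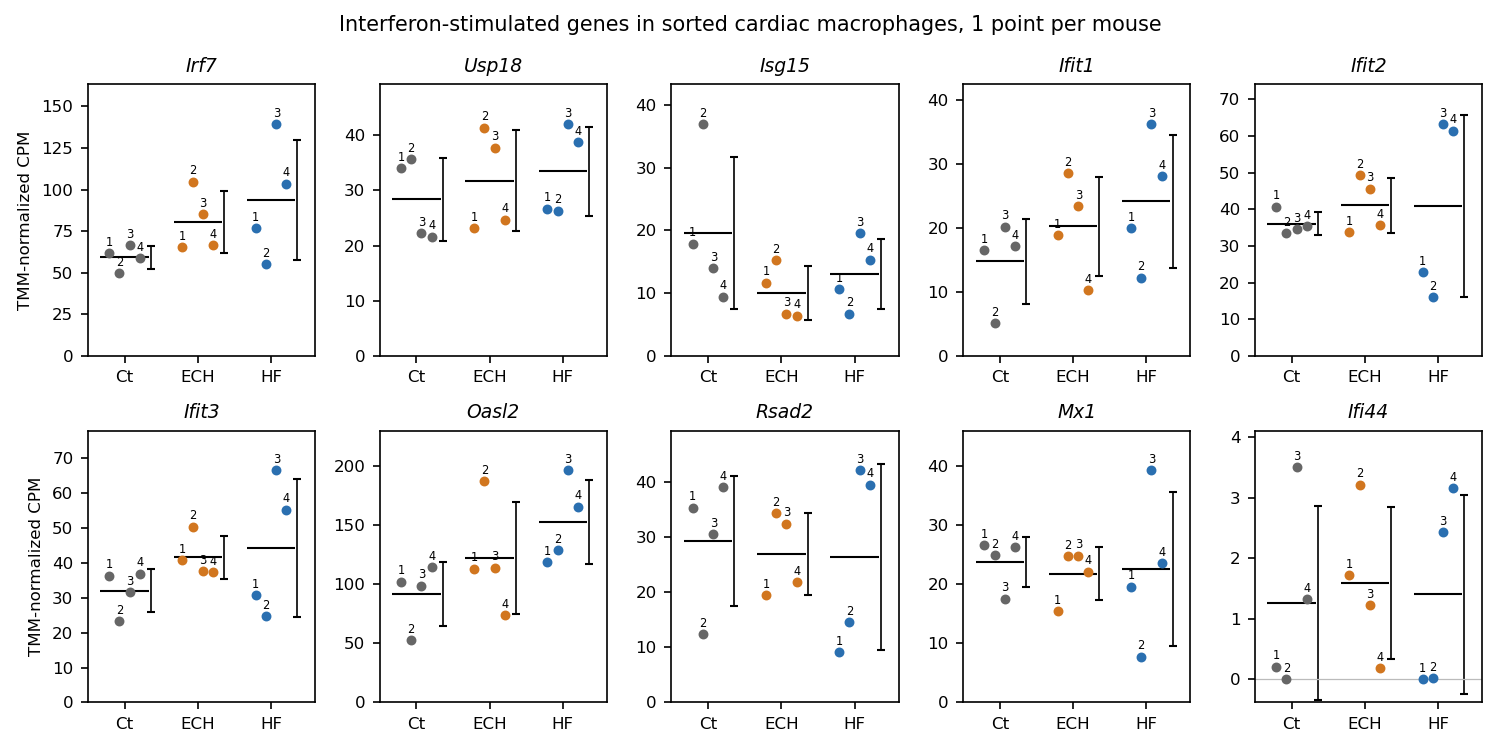
TMM-normalized CPM (y axes, each from its own scale) of the 10 members in Ct, ECH and HF Mφ (x axes), with 1 point per mouse numbered 1 to 4, the mean as a line and the SD as a bar beside it. In HF, mice 3 and 4 lay above mice 1 and 2 for all 10 genes.

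Oasl2 encodes an oligoadenylate synthetase-like protein with ubiquitin-like domains. It was at 102.2, 52.54, 98.76 and 114.4 in Ct, 113.2, 187.2, 114.1 and 74.16 in ECH and 118.7, 128.8, 196.4 and 165.8 CPM in HF. Every HF library lay above every Ct library, which 4.59% of all genes did, and ECH spanned both groups. The means were 91.97 ± 27.1, 122.2 ± 47.2 and 152.4 ± 35.6 CPM (SD, n = 4), and the log2 fold change of HF from Ct was 0.73 (SE 0.29, edgeR FDR 0.247). Without Ct 2 and HF 1 it was 0.63 (edgeR FDR 0.310, range over the alternatives 0.126 to 0.442). With the library set added to the model it was 1.40 (FDR 0.149).

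Rsad2 encodes viperin, a radical SAM enzyme that makes a chain-terminating nucleotide. Its level was 35.35, 12.43, 30.59 and 39.05 in Ct, 19.45, 34.29, 32.44 and 21.88 in ECH and 9.121, 14.59, 42.09 and 39.49 CPM in HF. Low and high libraries were found in every group, and the log2 fold changes from Ct were -0.12 (SE 0.46) in ECH and -0.16 (SE 0.46) in HF. Without Ct 2 and HF 1, which held the lowest levels, they were -0.38 and -0.13, and ECH vs HF turned from 0.04 to -0.25. Mx1 encodes a dynamin-like GTPase that blocks influenza virus, and the C57BL/6 strain is known to carry an allele without a functional protein. It was at 26.60, 24.88, 17.56 and 26.20 in Ct, 15.38, 24.76, 24.80 and 22.11 in ECH and 19.57, 7.754, 39.22 and 23.59 CPM in HF. HF held both the lowest and the highest of the 12 values, and the log2 fold changes from Ct were -0.13 (SE 0.36) in ECH and -0.08 (SE 0.36) in HF.

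Ifi44, which encodes a cytoplasmic protein induced by interferon, was the rarest member. Its counts were 21, 0, 347 and 137 in Ct, 174, 332, 137 and 22 in ECH and 0, 2, 261 and 354 in HF. In Ct 2 and HF 1, both at 0, counting error alone allows up to 3 counts. Relative to the library totals without TMM scaling, these limits are 0.0339 and 0.0279 CPM, while the other values are TMM-scaled. The level thus ranged from none detected to 3.508 CPM within Ct, from 0.1902 to 3.22 CPM within ECH and from none detected to 3.163 CPM within HF. The 95% interval of the log2 fold change of ECH from Ct ran from -3.32 to 3.98, so that even a 4-fold difference could not be told from none. Without Ct 2 and HF 1 the log2 fold change turned from 0.33 to -0.09 in ECH vs Ct and from 0.18 to -0.24 in ECH vs HF, and for Ifit2 it turned from 0.00 to -0.20 in ECH vs HF.

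Per length of exons, the means in Ct Mφ were highest for Isg15 (25.9 ± 15.99 CPM per kb; SD, n = 4), Ifit3 (18.4 ± 3.59), Irf7 (15.7 ± 1.88) and Oasl2 (14.4 ± 4.26), followed by Usp18 (10.2 ± 2.68), Ifit2 (9.19 ± 0.81), Rsad2 (6.77 ± 2.72), Mx1 (6.29 ± 1.12) and Ifit1 (5.55 ± 2.49). Ifi44 (0.206 ± 0.262 CPM per kb) lay far under all others. The length used joins the exons of all annotated transcripts of a gene. For Oasl2 it was 6374 bases, as compared to 3123 in its longest transcript, while for Isg15 it was 756 by both. The order, in HF as well, therefore depends on the length used. The level of Isg15 was 48.88 CPM per kb in Ct 2 and 12.5 to 23.65 in the other Ct libraries, where Ifit3 was at 18.12 to 21.12, so the first place of Isg15 rested on Ct 2. From Isg15 down to Ifit1 the gap between the means of neighbours was smaller than the larger of their SDs in each step but that from Oasl2 to Usp18, where it was about as large as the SD of Oasl2. In HF the order opened with Ifit3 (25.4 ± 11.4), Irf7 (24.8 ± 9.62) and Oasl2 (23.9 ± 5.59), with Isg15 at 17.3 ± 7.37 CPM per kb. The gaps between Ifit3, Irf7 and Oasl2 were smaller than their SDs. The Ifit3 count is also uncertain for the stretches it shares with Ifit3b.

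**Figure D2:**
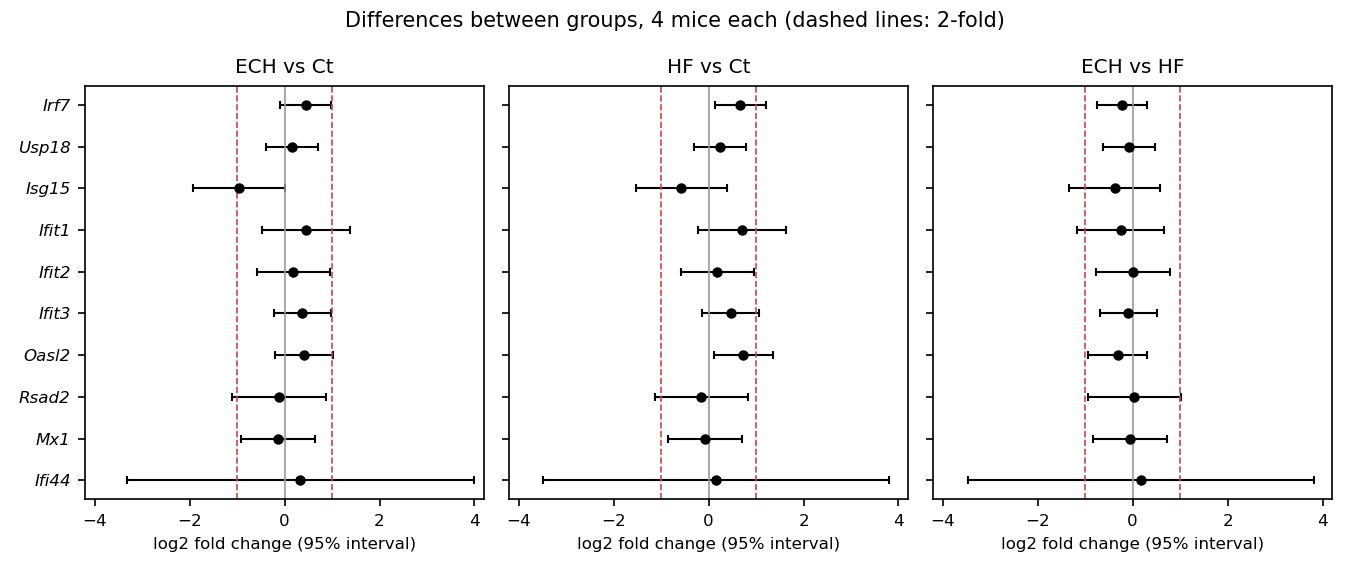
Log2 fold changes (x axes, points) of the 10 members (y axis) with 95% intervals (bars) from edgeR for ECH vs Ct, HF vs Ct and ECH vs HF, 4 mice per group. The dashed lines mark 2-fold, and the interval excludes 0 only for Irf7 and Oasl2 in HF vs Ct.

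In ECH 7 of 10 members had a higher fitted level than in Ct and the median log2 fold change was 0.26, as compared to 0.01 over all genes. In HF 7 of 10 were likewise above Ct with a median of 0.21, as compared to -0.02 over all genes, and Isg15, Rsad2 and Mx1 were below it in both. ECH and HF share the Ct mice in these comparisons. Between ECH and HF the median was -0.08 and 7 of 10 members were lower in ECH. The medians leaned on single mice. ECH vs Ct fell to 0.05 without ECH 2, HF vs Ct to 0.00 without HF 3 and 0.04 without HF 4, and ECH vs HF turned to 0.10 without HF 3. In the other direction, ECH vs Ct rose to 0.344 without ECH 4, and HF vs Ct to 0.475 without HF 1 and 0.506 without HF 2. ECH vs HF went to -0.313 without HF 2. A change of more than 2-fold in either direction lay outside the 95% interval for 5 members in ECH vs Ct (Usp18, Irf7, Mx1, Ifit3 and Ifit2), 3 in HF vs Ct (Usp18, Mx1 and Ifit2) and 6 in ECH vs HF (Oasl2, Usp18, Irf7, Mx1, Ifit3 and Ifit2).

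For the members, HF was the group in which mice differed most. The median SD of a member within a group, on the log2 scale, was 0.44 in Ct, 0.41 in ECH and 0.67 in HF, as compared to 0.40, 0.27 and 0.29 over all genes. HF was the widest of the groups for 6 of 10 members and for 26.3% of all genes. The highest HF mouse exceeded the lowest by 5.06-fold for Mx1, 4.61-fold for Rsad2 and 3.93-fold for Ifit2, as compared to 1.51, 3.14 and 1.21-fold in Ct. For Ifit1 and Isg15 the ratio was larger in Ct (3.94 and 3.91-fold) than in HF (2.96 and 2.91-fold). For Oasl2 (1.65-fold) and Usp18 (1.60-fold) the HF mice were closer.

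Within HF, mice 1 and 2 were the lower pair and mice 3 and 4 the higher pair for 10 of 10 members. The same order was found for 53 of 81 other interferon-stimulated genes (65.4%) and for 2876 of all 14608 genes (19.7%). It was looked for after the values had been seen. HF 1 and HF 2 share the first part of the code in their sample labels, while HF 3 and HF 4 each carry a code of their own. Ct 1 and 2, Ct 3 and 4, and ECH 3 and 4 share one as well, and the members averaged 0.06 and -0.70, -0.12 and -0.12, and 0.23 and -0.58 SDs from their mean over all libraries in these pairs. The labels do not say what the code stands for, and its part in the order was not tested. HF 1 was also the library with the fewest genes detected (13600, with 188 genes at 0), while HF 2 (15119) was not apart from HF 3 and HF 4 in this respect. Marker sums that separated the same pairs were found in both directions, and their part was not tested either. The neutrophil sum was 214.6 and 162.2 CPM in HF 1 and HF 2 and 433.5 and 1384 CPM in HF 3 and HF 4. In the opposite direction, and in the order HF 1 to HF 4, the sums were 31780, 29850, 29110 and 24390 CPM for the sort and Mφ in general, 90.72, 67.73, 63.76 and 56.77 CPM for B cells, 259.4, 263.6, 249.6 and 214.1 CPM for plasmacytoid dendritic cells and 110.6, 116.8, 103.2 and 66.71 CPM for cardiomyocytes. The Ly6C-high monocyte sum, at 4978, 6122, 5463 and 6585 CPM in HF 1 to HF 4, did not separate the pairs.

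Standardized over the 12 libraries (each gene's log2 CPM less its mean, in SDs), the members averaged 1.37 in HF 3, 0.92 in HF 4 and 0.88 in ECH 2. They averaged -1.14 in HF 2, -0.70 in Ct 2, -0.58 in ECH 4 and -0.57 in HF 1, and the other libraries lay between -0.23 and 0.23. HF 3 was the highest library for 8 of 10 members, and Ct 2 was the lowest for 5, with Ifi44 at 0 in HF 1 as well. Thus HF mice were found at both ends of the order, and the Ct mice other than Ct 2 lay in its middle.

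**Figure D3:**
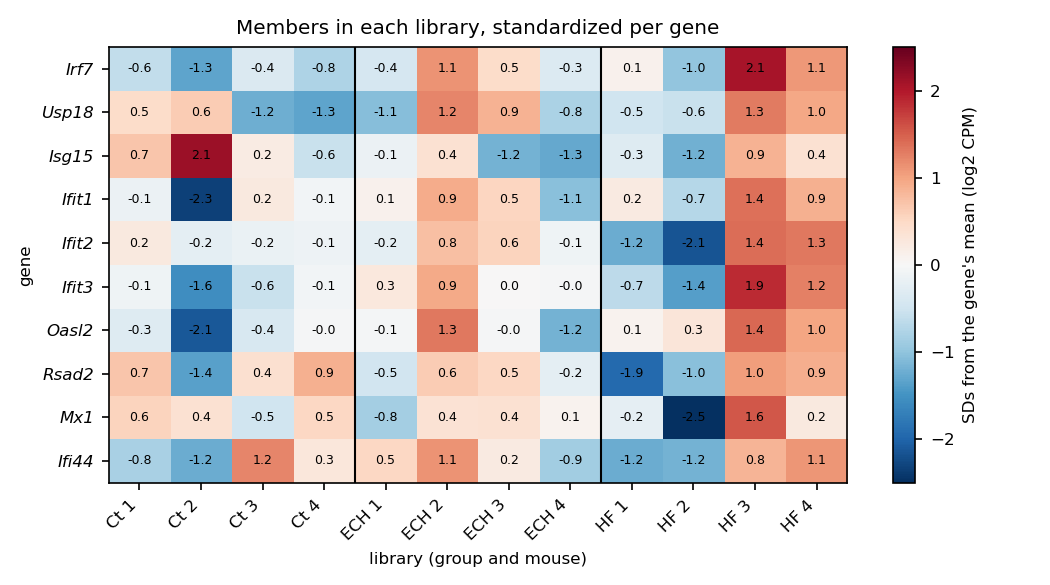
Standardized log2 CPM (colour and number, in SDs from the mean of each gene) of the 10 members (rows) in the 12 libraries (columns). HF 3, HF 4 and ECH 2 are high in nearly every row, HF 2 is low in most, and Isg15 departs from the others in Ct 2.

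The members moved together across mice to a varying degree. Pearson's r of log2 CPM over the 12 libraries ranged from -0.14 to 0.91 over the 45 pairs, with a median of 0.53. The closest pair was Oasl2 and Ifit1 (0.91), and Ifit3 and Irf7 reached 0.89. With the mean of the other 9 members, Ifit3 had an r of 0.90, Ifit2 0.88 and Irf7 0.86, while Isg15 was at 0.18. These values describe 12 libraries from 3 groups that share depth and sort, and no test was made of them.

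The genes outside the set whose log2 CPM was most like the members' mean over the 12 libraries were Zbp1 (r = 0.934), a sensor of Z-form nucleic acid, Gm7854 (0.855), Gbp2 (0.846), a guanylate-binding GTPase, Dhx58 (0.846), which encodes the RNA sensor LGP2, and Ifi47 (0.844), an immunity-related GTPase. Zbp1 was at 34.98, 30.43, 29.72 and 31.85 in Ct, 31.51, 55.20, 38.08 and 34.07 in ECH and 32.84, 20.44, 55.30 and 51.83 CPM in HF, with ECH 2, HF 3 and HF 4 again highest. Gm7854 did not exceed 0.5808 CPM in any library. Zbp1, Gbp2, Dhx58 and Ifi47 are in the lists of interferon genes described next. None of these r values was tested.

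The pathway that leads to the members was read from lists of its ligands, relay, sensors and inhibitors. Of 21 interferon genes, 17 were at 0 in all 12 libraries, among them all 14 interferon alpha genes, which are near-identical copies whose shared reads may not have been counted. Ifnb1, the gene of interferon beta, held 1122, 561, 492 and 78 counts in Ct, 211, 408, 90 and 0 in ECH and 310, 0, 113 and 26 in HF. In CPM this was 11.22, 6.525, 4.975 and 0.7545 in Ct, 2.089, 3.957, 0.8077 and 0 in ECH, and 2.967, 0, 1.052 and 0.2323 in HF. A count of 0 allows up to 0.0275 CPM in ECH 4 and 0.027 CPM in HF 2, relative to library totals without TMM scaling. Of the Ct mice 3 exceeded every mouse of the iso groups, and Ct 4 lay among them. The log2 fold changes from Ct were -1.78 (SE 1.49, edgeR FDR 0.686) in ECH and -2.46 (SE 1.53, FDR 0.459) in HF. The difference of HF turned to 0.44 in the model with the library set added (edgeR FDR 0.965, range over the alternatives 0.258 to 0.965). The order of mice by Ifnb1 was not that of the members, since HF 3 and HF 4 were at 1.052 and 0.2323 CPM. Ifng reached 3.606 CPM in Ct 2 and Ifnz at most 0.3539 CPM, in HF 3.

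The receptor genes were even across groups. Ifnar1 was at 178 ± 20.5, 162.7 ± 37.1 and 180.9 ± 38.3 in Ct, ECH and HF, and Ifnar2 at 238.3 ± 24.4, 230.7 ± 22.96 and 239.3 ± 22.8 CPM (SD, n = 4). Their log2 fold changes lay between -0.15 and 0.02 in the 3 comparisons. Stat2 was at 67.22 ± 21.4, 86.32 ± 14.6 and 78.54 ± 18.96 CPM and Irf9 at 104 ± 20.3, 104.1 ± 18.3 and 113.6 ± 22.1 CPM, with overlapping groups. Of the 11 relay genes 0 were called by edgeR in each comparison. At an unadjusted p under 0.05 there was 1 in ECH vs Ct, Stat3, a signal transducer of interleukin-6 and other cytokines, which was higher in ECH (log2 fold change 0.58, edgeR FDR 0.175), and there were 3 in ECH vs HF. These shares were 9.09% and 27.3%, as compared to 11.9% and 7.98% of all genes. In HF vs Ct the share was 0%, as compared to 16.1%. The 3 in ECH vs HF were Jak2 (0.58, edgeR FDR 0.534), Tyk2 (0.32, FDR 0.595) and the interferon gamma receptor gene Ifngr2 (-0.26, FDR 0.625).

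**Figure D4:**
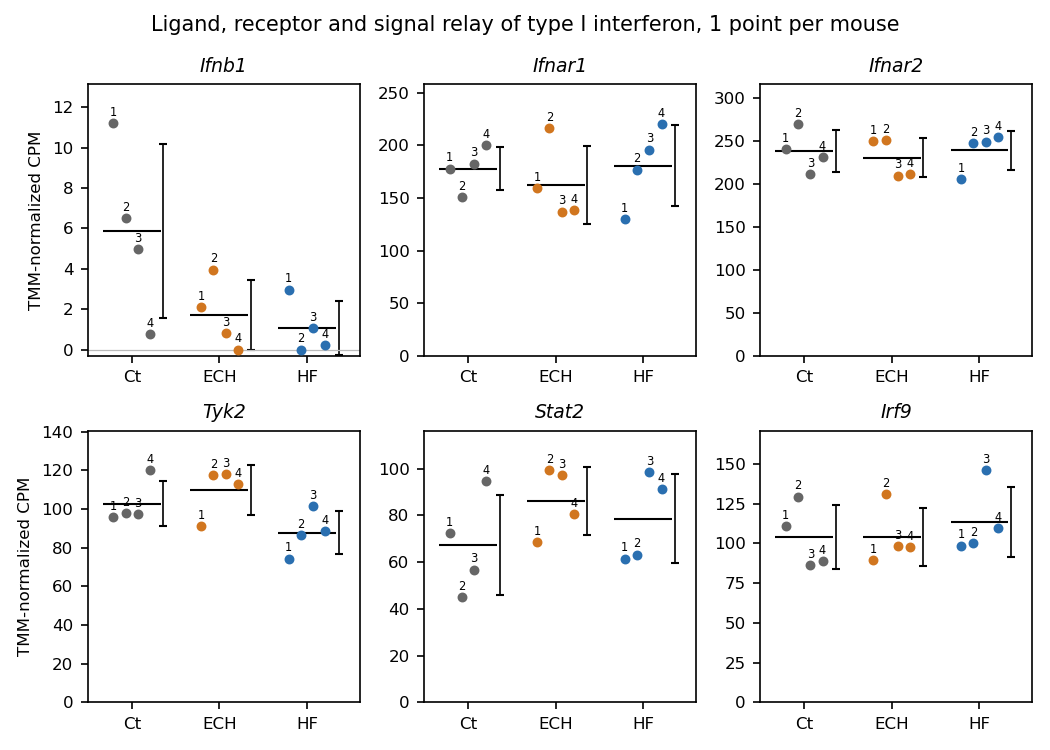
TMM-normalized CPM (y axes) of Ifnb1, the receptor genes Ifnar1 and Ifnar2 and the relay genes Tyk2, Stat2 and Irf9 in Ct, ECH and HF Mφ (x axes), with 1 point per mouse, the mean as a line and the SD as a bar. Ifnb1 is highest in Ct mice 1 to 3, and the groups overlap for the other 5 genes.

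Among 26 genes of nucleic acid sensing 0 were called by edgeR in each comparison, and 3 in ECH vs Ct (Tlr7, Ikbke and Tbk1), 3 in HF vs Ct (Ikbke, Ddx58 and Rnaseh2b) and 2 in ECH vs HF (Tlr7 and Tbk1) had an unadjusted p under 0.05, all with the higher level in the first group named. These shares (11.5%, 11.5% and 7.69%) were at or below those of all genes (11.9%, 16.1% and 7.98%). Tlr7, an endosomal sensor of single-stranded RNA, was at 211.6, 162.1, 166.2 and 223.5 in Ct, 256.7, 191.6, 427.8 and 445.2 in ECH and 177.4, 190.9, 160.2 and 142.6 CPM in HF. Every ECH library lay above every HF library, as for 3.56% of all genes, but ECH 2 only just so, and ECH 3 and ECH 4 were far above the rest. For ECH vs HF the log2 fold change was 0.98 (SE 0.24, edgeR FDR 0.491). It was 1.38 with the library set as a covariate (FDR 0.00211, range over the alternatives 0.00211 to 1). The kinases Ikbke and Tbk1, which phosphorylate IRF3 and IRF7, were both higher in every ECH library than in every Ct library, as were 4.33% of all genes. Ikbke was at 10.21, 13.89, 17.83 and 11.74 CPM in Ct and 23.91, 28.05, 23.41 and 18.11 CPM in ECH (log2 fold change 0.80, SE 0.21, edgeR FDR 0.134), and Tbk1 at 86.16, 61.68, 83.56 and 89.15 CPM in Ct and 115.4, 95.60, 141.1 and 147.5 CPM in ECH (0.64, SE 0.18, FDR 0.157).

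Of 11 genes that restrain the response 0 were called by edgeR in each comparison, and 2, 2 and 0 had an unadjusted p under 0.05 in ECH vs Ct, HF vs Ct and ECH vs HF (18.2%, 18.2% and 0%, as compared to 11.9%, 16.1% and 7.98% of all genes). The genes were Socs1, the suppressor of JAK kinases, and Trim24, a corepressor. Socs1 was at 27.46, 27.57, 11.24 and 15.40 in Ct, 15.67, 12.40, 4.101 and 7.693 in ECH and 14.27, 12.88, 9.50 and 8.078 CPM in HF. Its log2 fold changes from Ct were -1.03 (SE 0.40, edgeR FDR 0.324) in ECH and -0.87 (SE 0.40, FDR 0.311) in HF, and those of Trim24 -0.88 (FDR 0.252) and -0.76 (FDR 0.248). The difference of Socs1 in HF turned to 0.38 in the model with the library set added (edgeR FDR 0.831, range over the alternatives 0.175 to 0.831). Pias1, which adds SUMO to proteins, had its lowest p in ECH vs HF (0.36, FDR 0.635).

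Of the 81 other interferon-stimulated genes tested, 46 had a higher fitted level in ECH than in Ct, 50 in HF than in Ct and 35 in ECH than in HF. By edgeR 0 were called in each comparison, and their median log2 fold change was 0.06 in ECH vs Ct, 0.10 in HF vs Ct and -0.03 in ECH vs HF. At an unadjusted p under 0.05, 7 were higher and 5 (Helz2, Ifitm6, Pydc3, Ifi203 and Ddx60) lower in ECH than in Ct. In HF 3 (Ddx58, Rtp4 and Ifi27) were higher and 5 (Helz2, Pydc3, Ifitm6, Trim25 and Parp14) lower than in Ct, and 5 (Usp25, Trafd1, Ifi204, Trim25 and Pydc3) were higher and 1 (Ifi27) lower in ECH than in HF. The shares, 14.8%, 9.88% and 7.41%, stand beside 11.9%, 16.1% and 7.98% of all genes. The lowest p values in this list belonged to genes with a lower level in HF. Pydc3, the first of them, was counted for the list entry Ifi207 but is by its RefSeq synonym another gene. Pydc3, which RefSeq gives as a synonym of Ifi208, a gene of the HIN-200 family of DNA-binding proteins, was at 42.75, 28.33, 38.57 and 37.36 in Ct, 10.01, 17.62, 32.69 and 24.37 in ECH and 11.82, 7.763, 14.56 and 15.36 CPM in HF. Every HF library lay below every Ct library, and the log2 fold change was -1.57 (SE 0.32, edgeR FDR 0.055, range over the alternatives 0.000309 to 0.149), which passed the call in 9 of 22 alternatives. Trim25, a ubiquitin ligase of RIG-I signalling, was at 208.2 ± 47.0 CPM in Ct and 108.9 ± 12.01 CPM in HF (-0.94, SE 0.21, edgeR FDR 0.0791), and Ifitm6, an interferon-induced transmembrane gene, at 44.8 ± 17.95 and 19.05 ± 4.32 CPM (-1.23, SE 0.29, FDR 0.0878; SD, n = 4). Both HF ranges lay below those of Ct, as did 4 of the 81 genes (4.94%) and 4.45% of all genes. Ifitm6 is also in the list of Ly6C-high monocyte markers, and the part of cell content in its level was not tested. Among the members, by contrast, Irf7 and Oasl2 had the lowest p values in HF vs Ct and a higher level in HF; the difference between these genes and Pydc3 was not tested.

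Genes that respond more to interferon gamma, 23 tested, held 0 called genes in each comparison by edgeR, and 3 had an unadjusted p under 0.05 in ECH vs Ct (Socs1, Irf1 and Ciita), 3 in HF vs Ct (Socs1, Irf1 and Gbp5) and 0 in ECH vs HF, all lower in the iso group. These shares (13%, 13% and 0%) stand beside 11.9%, 16.1% and 7.98% of all genes. The list's median log2 fold changes were -0.09, -0.12 and -0.01. Ciita, which drives MHC class II genes, was at 81.81 ± 37.2 in Ct, 48.36 ± 12.9 in ECH and 57.16 ± 18.2 CPM in HF, and Gbp5, a guanylate-binding protein of inflammasome assembly, at 8.533 ± 2.83, 5.55 ± 1.22 and 4.21 ± 2.36 CPM (SD, n = 4). Ciita is expressed by B cells as well, the markers of which summed higher in each Ct library than in any library of the iso groups, and their part was not tested.

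Across mice the other interferon-stimulated genes followed the members closely. Their average in SDs was 0.81 in HF 3, 0.69 in ECH 2 and 0.49 in HF 4, the libraries that led for the members, and -0.58 in HF 1, -0.51 in HF 2, -0.42 in ECH 4 and -0.36 in Ct 2. For the interferon gamma-biased genes ECH 2 (0.87) and HF 3 (0.75) led, while HF 4 was at -0.05 and ECH 3 at -0.53.

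**Figure D5:**
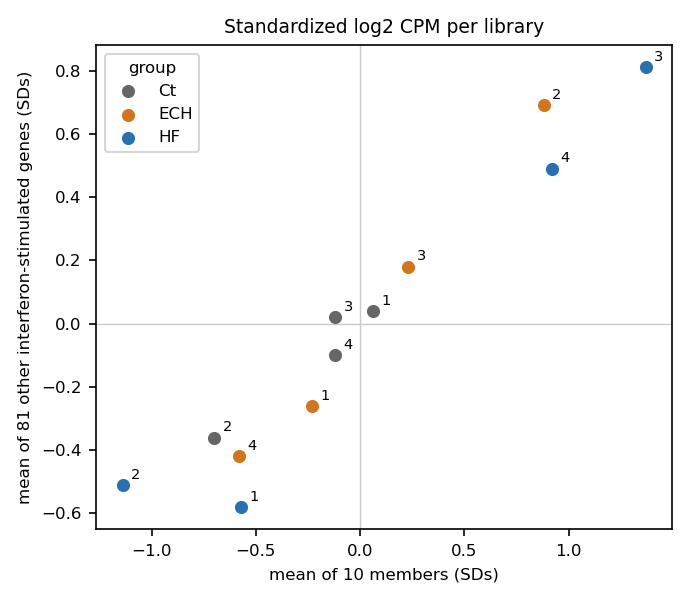
Mean standardized log2 CPM of the 10 members (x axis, SDs) against that of 81 other interferon-stimulated genes (y axis, SDs), 1 point per library, coloured by group and numbered by mouse. HF 3, HF 4 and ECH 2 lie at the upper right and HF 1, HF 2, ECH 4 and Ct 2 at the lower left, so that each group but Ct has libraries at both ends.

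Within the library set of Ct, ECH 1 and ECH 2, the median member was 0.35 higher (log2) in ECH than in Ct, and within the other set ECH 3 and 4 were 0.27 lower than HF. No set holds both Ct and HF, so HF vs Ct has no value within a set. With the set as a covariate the medians were 0.35 for ECH vs Ct, 0.60 for HF vs Ct and -0.27 for ECH vs HF, with 0 members called by edgeR in each. Oasl2 was lower in ECH 3 and 4 than in HF within their set (log2 fold change -0.70, edgeR FDR 0.166, range over the alternatives 0.166 to 1). Without Ct 2 and HF 1 the medians were 0.15, 0.40 and -0.25, again with 0 members called.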

How the data were processed

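RNA of FACS-sorted CD14+/CD64+ cardiac Mφ from 12 mice (4 each of Ct, ECH and HF, grouped by the condition in their labels) was amplified by the authors with SMART-Seq v4 and sequenced on a NextSeq machine with reads of 75 bases from both ends. The reads were trimmed with Trimmomatic, aligned with TopHat2 to mm10 and counted with featureCounts. The deposited values are raw counts per gene, without normalization. The sources used here do not give software versions, annotation, strand setting or the handling of reads that match several genes. Nothing was left out of the deposited libraries. Counts carry no molecular identifiers, and the limit put on a count of 0 (3 counts) covers only the error of counting. The precision of a comparison rests on 4 mice per group more than on depth (88466559 to 111180291 counts per library). The biological coefficient of variation that edgeR fitted for all genes tested together was 60.8%. For single members the SD of CPM within a group, relative to its mean, ranged from 8.81% (Ifit2 in Ct) to 127% (Ifi44 in Ct).

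The counts were tested with edgeR 4.0.16 under R 4.3.3 (filterByExpr by group, 14608 genes left, 59.8% of those in the files; TMM scaling; a single quasi-likelihood model of all 12 libraries with 1 mean per group; Benjamini-Hochberg adjustment over all genes tested). A call needed at least a 2-fold change with an FDR under 0.05, the thresholds of the paper. Standardized values and correlations used log2 CPM with 0.5 CPM added. In a simulation of HF vs Ct with 200 changed genes among 14608, the test recovered 21% of 2-fold and 67.5% of 4-fold changes. The changed genes were drawn at random from all genes tested, so these shares are not those of the members. Alternatives, 25 in all, were DESeq2 1.42.0, RLE scaling, limma-voom (limma 3.58.1) with quality weights, the likelihood ratio test, other filters, fits of only the groups compared, a replicate block, the inferred library set as covariate or alone, leaving out Ct 2 and HF 1 or each library in turn, no fold threshold and unadjusted p.

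Named were all 10 members, the receptor genes with Stat2 and Irf9 (a further relay gene is not reported here), of each pathway list the genes called or, with fewer than 3, those with the 3 lowest p values, and the 5 genes most like the members' mean. Genes that make up a count of 5 or fewer, and Camp, were named after their values were seen. The list entry Ifi207 was matched to the symbol Pydc3 in the files, which RefSeq gives as a synonym of Ifi208. The members and lists were chosen with earlier results of these data known. Gene positions and exon lengths came from GENCODE M21 (GRCm38), promoter sequences from RefSeq (GRCm38.p6). Figures were drawn with matplotlib 3.10.9.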

Additional observations from a re-analysis of the deposited data

Results flagged for a closer look

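Within the groups of 4, the highest or lowest library was checked against the other 3 by Dixon's ratio for the members and the other named genes. Of 96 groups 4 held such a library, and chance alone gives about 4.8. None of the 30 groups of the members did. Ifnz was at 0.01939 CPM in ECH 2, below the other ECH libraries. Tyk2 was at 120 CPM in Ct 4, as compared to 95.67 to 98.03 CPM in the other Ct libraries, and Pias1 at 208.7 CPM in Ct 4, as compared to 162.6 to 168.9 CPM. Ifnar2 was at 205.5 CPM in HF 1, one of the libraries with few genes detected, as compared to 247.4 to 254.9 CPM in the other HF libraries.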

How the results depend on the processing

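Of 10 members 0 were called under the 25 alternatives run for ECH vs Ct and ECH vs HF and the 24 run for HF vs Ct, which has no value within 1 library set. The lowest FDR of a member over the alternatives was 0.275 in ECH vs Ct (Isg15, DESeq2), 0.118 in HF vs Ct (Irf7, DESeq2) and 0.166 in ECH vs HF (Oasl2, 1 library set only). Leaving out each library in turn, the median member ranged from 0.048 to 0.344 in ECH vs Ct. In HF vs Ct it ranged from 0.001 to 0.506, and in ECH vs HF from -0.313 to 0.103. With the library set as covariate, HF vs Ct went from 0.209 to 0.599. The SD of that median between libraries (0.464) exceeded every shift. It also exceeded each median of the fit reported, so it cannot show that the medians were stable. Of 680 alternative values of members 57 changed sign, none of them called, and of 1489 values of the other named genes 58 changed sign and 15 were called that were not in the fit reported, for Pydc3, Trim25, Ifitm6 or Tlr7. The replicate numbers did not pair the mice (correlations of same-numbered deviations from -0.108 to 0.096). With the replicate block the medians were 0.295, 0.140 and -0.054, with 0 members called.

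Over all genes the counts called in ECH vs Ct, HF vs Ct and ECH vs HF were 52, 55 and 0. DESeq2 called 245, 337 and 47, the likelihood ratio test 218, 273 and 48, and the counts were 84, 130 and 0 with limma-voom, 22, 18 and 0 with the replicate block, 22, 208 and 272 with the library set as covariate, 542, 748 and 246 at an unadjusted p under 0.05 with the fold threshold, and 11 to 95, 15 to 103 and 0 without 1 library. ECH vs Ct gave 8 with only the groups compared and 1 within its library set, and ECH vs HF 370 within its set. Among other interferon-stimulated genes at most 2, 4 and 3 were called. The depth of the libraries was not varied among the alternatives.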
